A study of Homo sapiens with 6 samples.

Results

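The HOX genes were read from the rows whose symbol is HOXA, HOXB, HOXC or HOXD followed by a number, which gave 39 genes of 42656 rows. Readthrough and antisense symbols were left out by that rule and are described apart. The libraries came from TOV21G, an established line from an ovarian clear cell carcinoma. Of the 6 libraries, 3 came from cells given the lentiviral hairpin TRCN230492 against MEX3A, an RNA-binding protein (shMEX3A), and 3 from cells given the scrambled hairpin TRC2-Scramble_ASN0003 (shCtrl). Both arms thus received lentivirus, with an MOI (infectious units per cell) of 50, and RNA was taken on day 3. Each arm used 1 hairpin, in 1 line with no other genetic change named in the labels. Whether the 3 libraries of each arm are from different cultures is not stated, and p-values here cover only how much these libraries vary.

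HOX genes encode transcription factors that bind DNA through a homeodomain and give cells their position along the body axis. They lie in clusters, and genes at one end (low numbers) mark anterior positions while genes at the other end (high numbers) mark posterior ones. Genes of the same number in different clusters, called paralogs, arose by duplication of an ancestral cluster. In the mouse reproductive tract, Hoxa9, Hoxa10, Hoxa11 and Hoxa13 mark the oviduct, uterus, cervix and vagina in that order, and ovarian carcinomas can express genes of this set.

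Library totals ran from 34662635 to 48228216 counts, and HOX genes took 0.0916% to 0.0944% of them in shMEX3A and 0.0831% to 0.0862% in shCtrl. The hairpin's target, MEX3A, averaged 20.9 ± 1.31 CPM (counts over each library's TMM-adjusted size) in shMEX3A and 69.0 ± 1.54 CPM in shCtrl (SD, n = 3 each), a log2 fold change of -1.72. Of 7 genes listed for clear cell carcinoma, 4 were called higher and 2 lower in shMEX3A. ARID1A, with a log2 fold change of 0.23, was counted among the 4. Calls in this and the next marker lists are read against 34% higher and 35.6% lower over all tested genes. The called genes of the clear cell list included PAX8, at 294 CPM in shMEX3A and 192 CPM in shCtrl. ANXA4, also called, was at 214 CPM in shMEX3A and 652 CPM in shCtrl. NAPSA, a defining marker of this tumour type, stood at only 0.729 CPM in shMEX3A and 0.415 CPM in shCtrl. Of 12 fibroblast markers, 6 could be tested and 5 rose, with a summed level of 1520 to 1570 CPM in shMEX3A and 674 to 686 CPM in shCtrl. The rises included COL1A1, at 117 CPM in shMEX3A and 13.1 CPM in shCtrl, ACTA2, at 263 CPM in shMEX3A and 84.2 CPM in shCtrl, and COL1A2, at 1140 CPM in shMEX3A and 570 CPM in shCtrl. Of the 6 that were under the filter, COL3A1 averaged 0.140 CPM in shMEX3A and 0.119 CPM in shCtrl, and PDGFRB averaged 0.120 CPM in shMEX3A and 0.147 CPM in shCtrl. Leukocyte markers summed to 10.6 to 11.1 CPM in shMEX3A and 7.64 to 8.72 CPM in shCtrl, with CD3E, CD3D, MS4A1 and NKG7 at 0. Of these 10 markers 2 were tested, and both were called higher, ITGAM by a log2 fold change of 1.6 and CD68 by 0.27. Endothelial markers summed to 68.2 to 70.0 CPM in shMEX3A and 46.7 to 48.2 CPM in shCtrl, with KDR and CLDN5 at 0. Of these 8 markers 4 were tested, 3 were called higher and 1 was not called. Those higher were ENG by 0.47, TIE1 by 1.15 and CDH5 by 3.29. CDH5 was low, at 0.432 CPM in shMEX3A and 0.0424 CPM in shCtrl. Hepatocyte markers summed to 30.6 to 35.4 CPM in shMEX3A and 125 to 134 CPM in shCtrl, with APOB and TTR at 0. FGB alone was 31.9 CPM of that sum in shMEX3A and 128 CPM in shCtrl, and SERPINA1 was 0.934 CPM in shMEX3A and 1.02 CPM in shCtrl. The part of these markers in the HOX results was not tested. In bulk RNA, fewer cells with a transcript and less of it per cell cannot be told apart.

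The control cells expressed a broad HOX code led by posterior genes. A gene was counted as expressed where each shCtrl library held at least 1 CPM per kb of exon, and 26 of the 39 genes met this. They comprised 10 of 11 HOXA genes, 6 of 10 HOXB genes, 7 of 9 HOXC genes and 3 of 9 HOXD genes. The HOXA cluster held 50.3% of the summed HOX level per kb in shCtrl, HOXC 35.0%, HOXB 11.7% and HOXD 3.04%. With a limit of 0.5 CPM per kb the count in shCtrl was 31 genes, and with a limit of 2 CPM per kb it was 22.

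HOXC10, which marks lumbar levels of the mouse spinal cord, was the highest in shCtrl at 91.1 ± 3.00 CPM per kb (SD, n = 3). HOXA10, a uterine patterning gene, followed at 55.9 ± 0.411 CPM per kb. HOXA5, known from mouse lung and skeleton development, came next at 48.4 ± 1.29 CPM per kb. HOXA7 at 23.3 ± 0.622 and HOXB7 at 19.6 ± 1.67 CPM per kb took the next ranks, and the shCtrl libraries of each of these 5 genes did not overlap with those of the next. From there the order was less firm. HOXA3, HOXB13, HOXA11 and HOXA6 averaged 14.7, 13.9, 12.9 and 12.1 CPM per kb in shCtrl, and each overlapped its neighbour in rank. HOXC9, HOXC11, HOXC13, HOXC6 and HOXA4 lay between 9.30 and 5.58 CPM per kb, in that order. The remaining expressed genes, from HOXA9 at 4.33 to HOXB8 at 1.38 CPM per kb, mostly overlapped their neighbours.

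At the bottom of the code, 5 genes fell under the low-count filter in both arms and were not tested. HOXB1, an anterior hindbrain gene, had 0 counts in all 6 libraries, and 3 counts would have been 0.064 to 0.089 CPM. HOXA13, a gene of the lowest reproductive tract and the digits, had 1, 3 and 2 counts in shMEX3A and 6, 11 and 8 counts in shCtrl. HOXC12 had 9, 2 and 3 counts in shMEX3A and 16, 14 and 9 counts in shCtrl. The HOXA13 libraries did not overlap between the arms. Those of HOXC12 touched at 9 counts and were apart only after scaling, at 0.218 CPM in shMEX3A replicate 1 and 0.224 CPM in shCtrl replicate 3. Without the filter both genes were called lower in shMEX3A, with an adjusted p of 0.023 for HOXA13 and 0.0226 for HOXC12 (edgeR quasi-likelihood test). HOXB4 had 3 to 7 counts in shMEX3A and 4 to 9 counts in shCtrl, and HOXD12 had 0 to 7 counts in shMEX3A and 0 to 3 counts in shCtrl.

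**Figure D1:**
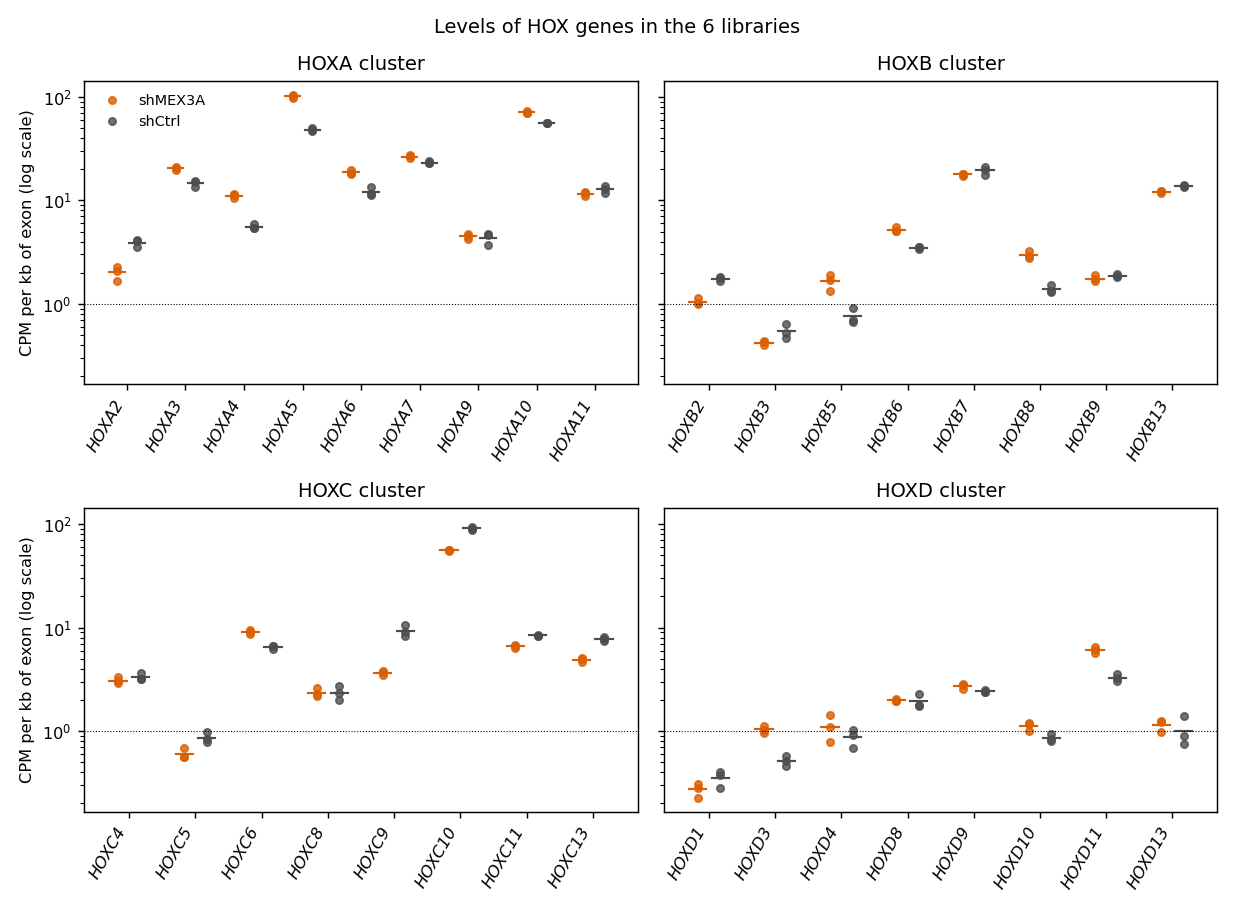
Levels of the tested HOX genes reported here in CPM per kb of exon on a log scale, one panel per cluster, with genes in paralog order along the x axis, a point per library, a line at the mean of 3 libraries, and shMEX3A left of shCtrl; the dotted line marks 1 CPM per kb. HOXC10 stands highest in shCtrl and HOXA5 highest in shMEX3A, while HOXD genes stay low in both arms.

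With MEX3A lowered, 14 HOX genes were higher and 11 lower in shMEX3A, and 9 of the 34 tested were not called (edgeR quasi-likelihood test, Benjamini-Hochberg adjusted p under 0.05 over all tested genes). Calls were common in the whole comparison, where 69.7% of 15679 tested genes passed, 34% higher and 35.6% lower. The 73.5% of tested HOX genes that passed is close to that background. A change of at least 1.5-fold was called for 8 HOX genes in the higher direction and 5 in the lower, against a background of 14.8% higher and 13.2% lower. Those called higher included HOXA4, HOXA5, HOXA6, HOXB5, HOXB8, HOXD3 and HOXD11, and the 5 called lower were HOXA2, HOXB2, HOXC9, HOXC10 and HOXC13. The median log2 fold change was 0.11 over tested HOX genes and -0.01 over all tested genes, and its median size was 0.43 against 0.35. All 3 shMEX3A libraries lay above all 3 shCtrl libraries for 15 HOX genes and below them for 9, where over all tested genes the arms were apart for 72.3%, 35.4% above and 36.9% below.

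The make-up of the code differed more than its extent. Expressed genes numbered 26 in shMEX3A and 26 in shCtrl, with HOXB5 over the limit in shMEX3A only and HOXB2 in shCtrl only. Of the 26 expressed in shCtrl, 20 were called, against 69.7% of all tested genes. HOXA5 took the first rank in shMEX3A at 102 ± 3.96 CPM per kb, ahead of HOXA10 at 71.1 ± 1.29 and HOXC10 at 56.0 ± 0.674 CPM per kb. The HOXA cluster summed to 281 ± 6.20 CPM per kb in shMEX3A and 186 ± 3.78 in shCtrl (SD, n = 3 each). The HOXC cluster summed to 86.3 ± 1.03 CPM per kb in shMEX3A and 130 ± 4.46 in shCtrl. Single genes carried much of both differences. HOXA5 was 102 CPM per kb in shMEX3A and 48.4 in shCtrl, and HOXC10 was 56.0 in shMEX3A and 91.1 in shCtrl. HOXA thus made up 66.0% ± 0.395 of the HOX total in shMEX3A and 50.3% ± 0.541 in shCtrl. HOXC made up 20.2% ± 0.123 in shMEX3A and 35.0% ± 0.365 in shCtrl. The HOXB sum was 43.0 ± 1.18 CPM per kb in shMEX3A and 43.4 ± 1.86 in shCtrl, a difference within the spread. The HOXD sum was 15.5 ± 0.154 CPM per kb in shMEX3A and 11.3 ± 0.748 in shCtrl.

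**Figure D2:**
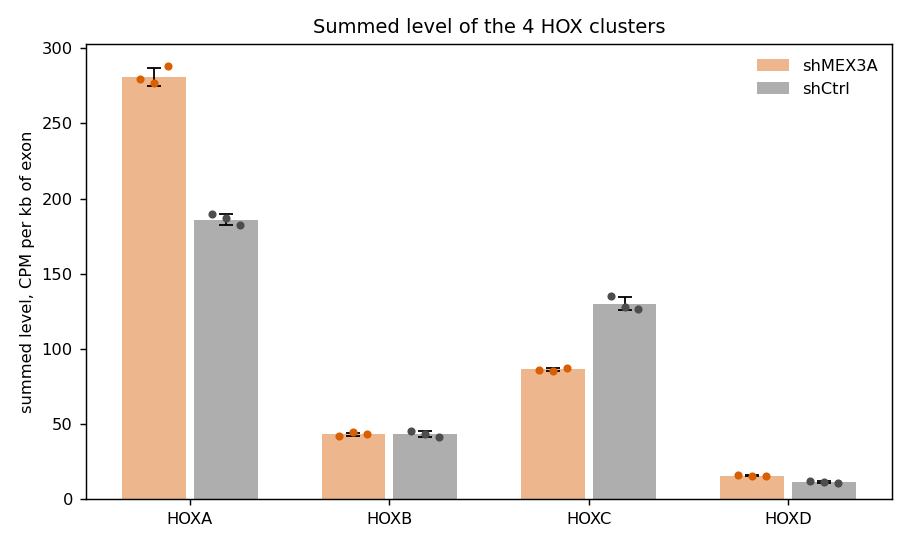
Summed HOX level per cluster in CPM per kb of exon, with a point per library, a bar at the mean of 3 libraries, an error bar of 1 SD and shMEX3A left of shCtrl. The HOXA sum is 281 in shMEX3A and 186 in shCtrl, and the HOXC sum is 86.3 in shMEX3A and 130 in shCtrl.

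The clusters differed in the direction of their calls. In HOXA, on the minus strand of chromosome 7 (GRCh38, from GENCODE 29), 7 of 10 tested genes were higher in shMEX3A, 2 lower and 1 not called. In HOXC, on chromosome 12 from 53938765 to 54056030 on the plus strand, 1 of 8 tested genes was higher in shMEX3A, 5 lower and 2 not called. HOXB, at 48528526 to 48729178 of chromosome 17, minus strand, had 3 higher and 4 lower of 8 tested. HOXD, on chromosome 2 from 176092891 to 176190907 on the plus strand, had 3 higher and 0 lower of 8 tested. By position, 3 of 7 tested genes of paralog groups 1 to 3 were higher in shMEX3A and 3 lower. Of 14 tested genes of groups 4 to 8, 8 were higher and 2 lower, and of 13 tested genes of groups 9 to 13, 3 were higher and 6 lower. These counts are read against the 34% higher and 35.6% lower over all tested genes. Their difference between clusters or position classes was not tested.

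**Figure D3:**
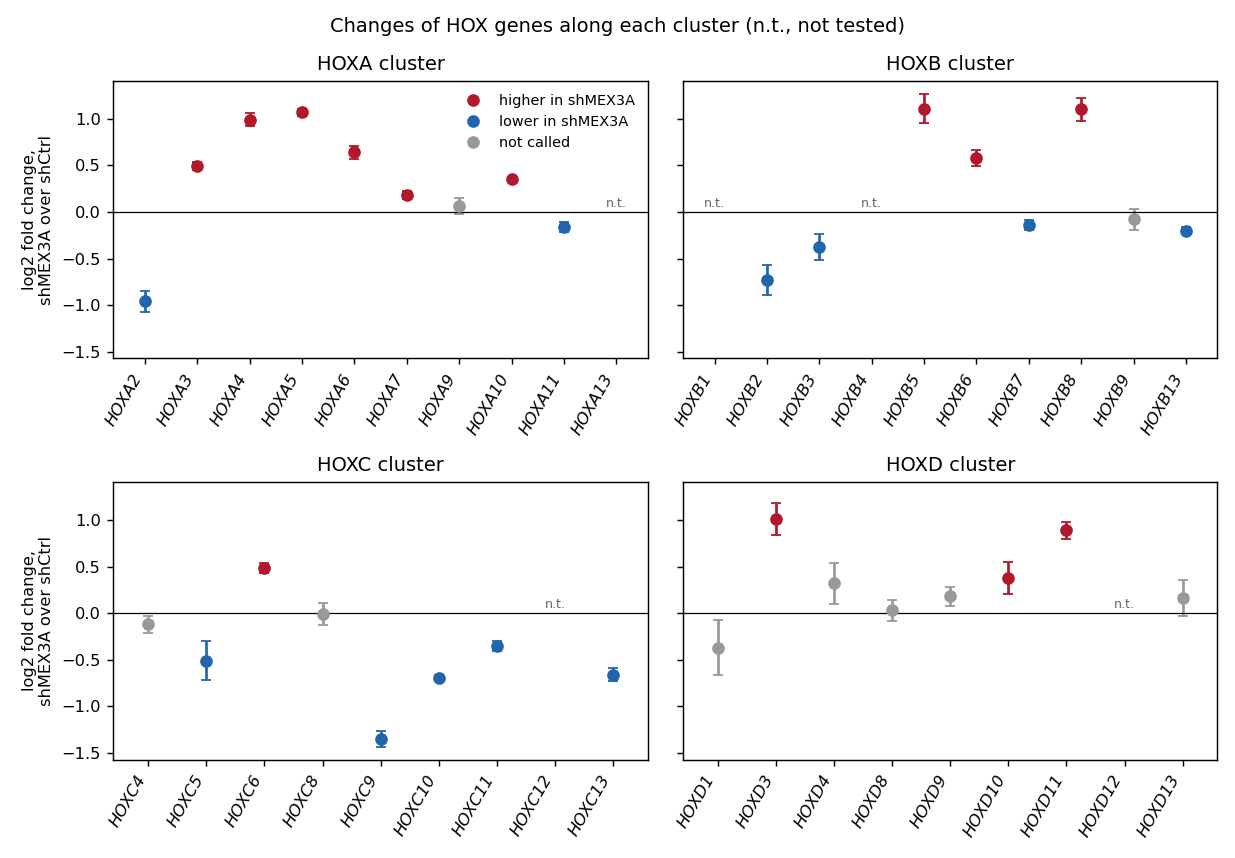
Log2 fold change of the HOX genes reported here, shMEX3A over shCtrl, with error bars of 1 SE, one panel per cluster in paralog order, coloured by call. Calls in HOXA lie mostly above 0 and in HOXC mostly below 0, for example HOXA5 at 1.07 and HOXC9 at -1.35; n.t. marks genes that were not tested.

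The anterior genes, of groups 1 to 3, were called in both directions. HOXA2, which sets the identity of the second branchial arch, had 4.14, 3.04 and 3.81 CPM in shMEX3A, against 7.43, 6.43 and 7.36 CPM in shCtrl. The arms did not overlap and HOXA2 was 1.95-fold lower in shMEX3A (log2 fold change -0.96, SE 0.11; adjusted p = 8.51e-10 by the edgeR test).

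HOXB2, the paralog of HOXA2, also fell. It had 1.55, 1.61 and 1.77 CPM in shMEX3A, against 2.74, 2.85 and 2.59 CPM in shCtrl, with no overlap (log2 fold change -0.73, SE 0.16, adjusted p = 9.85e-05). The group 3 genes, which act in pharyngeal arches and the neck, were split. HOXA3 had 73.1, 75.1 and 77.8 CPM in shMEX3A, against 56.2, 55.1 and 50.1 CPM in shCtrl, and HOXD3 had 2.40, 2.57 and 2.77 CPM in shMEX3A, against 1.14, 1.44 and 1.27 CPM in shCtrl. Both were higher in every shMEX3A library, with a log2 fold change of 0.49 (SE 0.041) for HOXA3 and 1.01 (SE 0.17) for HOXD3. HOXB3 had 2.52, 2.65 and 2.71 CPM in shMEX3A, against 4.03, 2.91 and 3.24 CPM in shCtrl, and was called lower (log2 fold change -0.38, adjusted p = 0.0165). Without shCtrl replicate 1 the HOXB3 change was -0.23 and no longer passed (adjusted p = 0.194), nor did it without shMEX3A replicate 1 (adjusted p = 0.0534). HOXB3 and HOXD3 were the only HOX pair on different chromosomes that shared runs of 50 exon bases. The 13 shared runs were counted at every start position, so they can overlap and form fewer stretches. Within its own cluster HOXB3 shared 385 such runs with HOXB6 and 25 with HOXB4. Exons of other genes cover 74.1% of HOXD3. HOXD1 was not called, with a 95% confidence interval (as for all intervals given) of -0.98 to 0.24 on the log2 scale.

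The central genes, of groups 4 to 8, included the largest gain in level. HOXA5 had 170, 161 and 174 CPM in shMEX3A, against 82.4, 80.2 and 78.1 CPM in shCtrl. The arms were far apart, and HOXA5 was 2.10-fold higher in shMEX3A (log2 fold change 1.07, SE 0.035, adjusted p = 1.04e-25). None of the exon bases of HOXA5 lay under exons of another gene. HOXA4 had 19.6, 18.3 and 20 CPM in shMEX3A, against 9.42, 10.3 and 9.5 CPM in shCtrl, and HOXA6 had 18.4, 19.5 and 17.8 CPM in shMEX3A, against 11.4, 13.4 and 11.1 CPM in shCtrl. Both rose without overlap, by a log2 fold change of 0.99 (SE 0.068) for HOXA4 and 0.64 (SE 0.070) for HOXA6. HOXA7, with 51.7, 53.8 and 54.8 CPM in shMEX3A and 48.4, 46.4 and 46.1 CPM in shCtrl, rose by 0.18 (SE 0.041, adjusted p = 0.000134). Exons of other genes cover 62.5% of HOXA7, 47.3% of HOXA4 and 40.1% of HOXA6, and since the strand setting of the counting is not given, reads of such overlaps cannot be assigned with certainty.

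In HOXB the central genes HOXB5, HOXB6 and HOXB8 were low in both arms and higher in shMEX3A. HOXB5 had 2.74, 3.48 and 3.92 CPM in shMEX3A, against 1.85, 1.35 and 1.42 CPM in shCtrl, and HOXB8, known for holding mouse myeloid progenitors undifferentiated, had 5.04, 5.94 and 5.28 CPM in shMEX3A, against 2.77, 2.43 and 2.37 CPM in shCtrl. Neither overlapped between the arms, and the log2 fold change was 1.11 (SE 0.16, adjusted p = 1.99e-07) for HOXB5 and 1.10 (SE 0.12, adjusted p = 3.1e-10) for HOXB8. HOXB6 was 9.83, 10.8 and 9.85 CPM in shMEX3A, against 6.88, 7 and 6.58 CPM in shCtrl, a rise of 0.58 (SE 0.082). Exons of HOXB3 and HOXB-AS3 cover 32.9% of HOXB6, and reads of that overlap cannot be assigned with certainty. HOXB7, the most abundant HOXB gene per kb, had 23.8, 24.9 and 24.8 CPM in shMEX3A, against 29, 27.3 and 24.5 CPM in shCtrl. Its arms overlapped, and its call as lower (log2 fold change -0.14, adjusted p = 0.0307) was lost under correction for GC content and length, where the change was 0.00, and without shCtrl replicate 1, where it was -0.08. Leaving out shCtrl replicate 2 or any shMEX3A replicate also ended that call, with an adjusted p of 0.0525 to 0.114.

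Of the central HOXC genes, HOXC6 alone rose, among those tested. It had 28.1, 29.8 and 30.6 CPM in shMEX3A, against 21.4, 20.1 and 21.6 CPM in shCtrl (log2 fold change 0.48, SE 0.054, adjusted p = 4.04e-10), and the arms did not overlap. All 3 group 6 genes, HOXA6, HOXB6 and HOXC6, were thus called higher. HOXC5 had 1.02, 1.23 and 1.00 CPM in shMEX3A, against 1.51, 1.75 and 1.42 CPM in shCtrl, and was called lower (log2 fold change -0.51, adjusted p = 0.0278). That call was lost without shMEX3A replicate 1, shMEX3A replicate 3 or shCtrl replicate 2, with an adjusted p of 0.0833, 0.0802 and 0.106. HOXC4 had 6.85, 6.58 and 7.46 CPM in shMEX3A and 8.21, 7.28 and 7.13 CPM in shCtrl, and HOXC8 had 4.94, 4.08 and 4.28 CPM in shMEX3A and 5.12, 3.78 and 4.36 CPM in shCtrl. The arms overlapped for both, and the intervals of the log2 fold change were -0.31 to 0.06 for HOXC4 and -0.25 to 0.23 for HOXC8. HOXC4, HOXC5 and HOXC6 share exon sequence in their gene models. How reads of the shared exons were counted is not given, so these counts cannot be taken as separate measurements. In HOXD, HOXD4 and HOXD8 were not called, with intervals of -0.13 to 0.77 and -0.19 to 0.25. Without shMEX3A replicate 2 HOXD4 was called higher (log2 fold change 0.53, adjusted p = 0.0455).

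**Figure D4:**
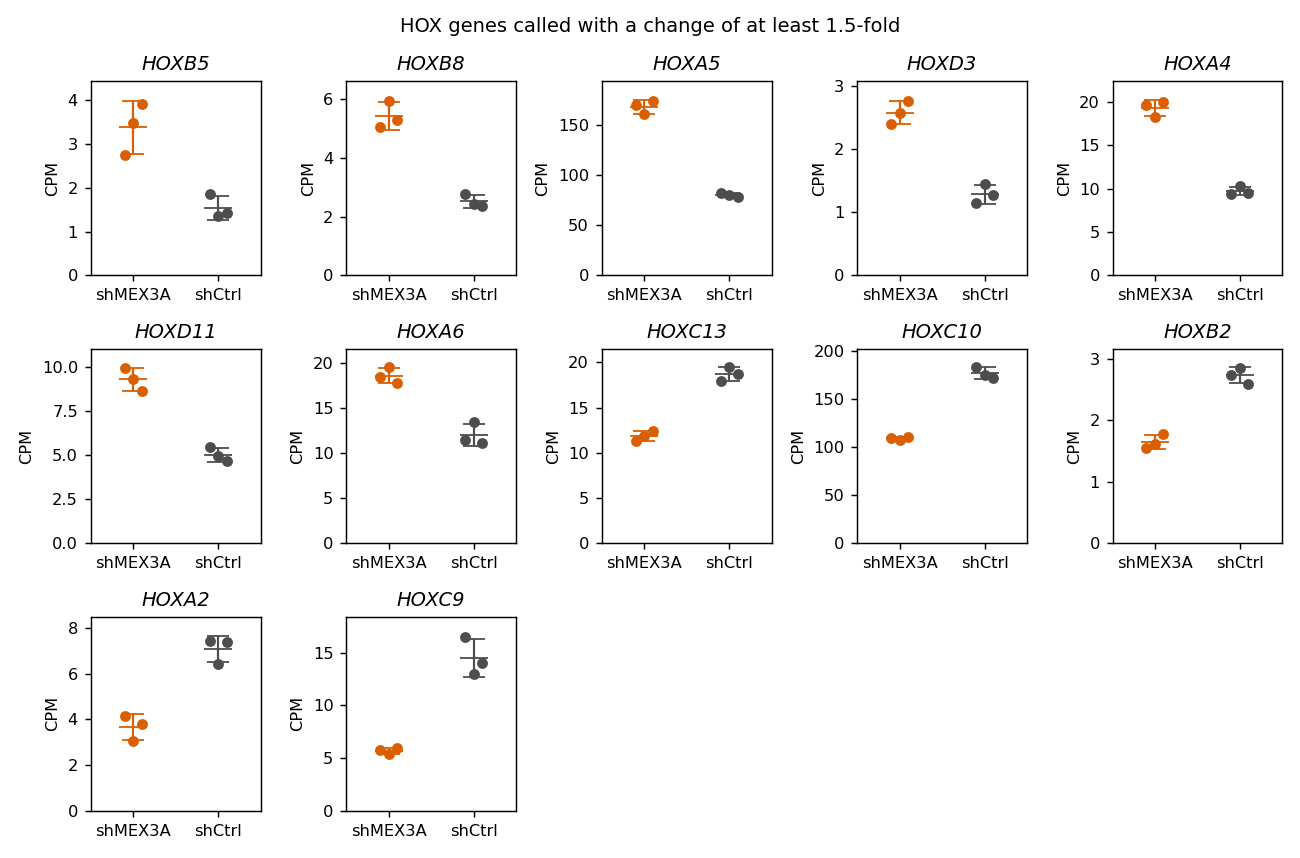
CPM per library of the HOX genes reported here that were called with a change of at least 1.5-fold, a panel per gene with its own linear axis from 0, shMEX3A left of shCtrl, and a line at the mean of 3 libraries with error bars of 1 SD. The arms are apart in each panel, from HOXB5 (2.16-fold higher in shMEX3A) to HOXC9 (2.56-fold lower in shMEX3A).

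The posterior genes, of groups 9 to 13, held the largest drop in level. HOXC10 had 109, 107 and 110 CPM in shMEX3A, against 183, 175 and 171 CPM in shCtrl. It was lower in every shMEX3A library, by 1.63-fold (log2 fold change -0.70, SE 0.033, adjusted p = 7.62e-21). HOXA10, its paralog, had 223, 221 and 229 CPM in shMEX3A, against 177, 175 and 177 CPM in shCtrl, with no overlap and a 1.27-fold higher level (log2 fold change 0.35, SE 0.030, adjusted p = 9.1e-13). HOXD10 had 1.99, 2.36 and 2.39 CPM in shMEX3A, against 1.67, 1.61 and 1.87 CPM in shCtrl, and was called higher by a small margin (log2 fold change 0.38, SE 0.17, adjusted p = 0.042). The HOXD10 call was lost without shMEX3A replicate 2 or 3 or shCtrl replicate 1 or 2, with an adjusted p of 0.0877 to 0.116. The ratio of HOXA10 to HOXC10 per kb was 1.26, 1.27 and 1.28 in shMEX3A and 0.595, 0.612 and 0.635 in shCtrl. Per kb, HOXA10 thus stood above HOXC10 in shMEX3A and below it in shCtrl. The lower position in shCtrl rests on the division by exon length. In CPM, HOXA10 averaged 177 ± 1.3 and HOXC10 176 ± 5.8 in shCtrl, and 224 and 108 in shMEX3A. The 2-sided exact permutation p was 0.1, the smallest that 3 against 3 libraries can give. Since both genes were already apart in opposite directions, that p was fixed in advance and adds no support. Group 10 as a whole summed to 128 ± 1.93 CPM per kb in shMEX3A and 148 ± 3.04 in shCtrl.

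The homeoboxes of these group 10 paralogs are shown because the genes moved in opposite directions while coding for closely related DNA-binding domains. They are the 180 bases of the coding strand from the GENCODE 29 transcripts, 5′ to 3′, and capitals mark the 50 positions at which the sequences are not all the same.
HOXA10: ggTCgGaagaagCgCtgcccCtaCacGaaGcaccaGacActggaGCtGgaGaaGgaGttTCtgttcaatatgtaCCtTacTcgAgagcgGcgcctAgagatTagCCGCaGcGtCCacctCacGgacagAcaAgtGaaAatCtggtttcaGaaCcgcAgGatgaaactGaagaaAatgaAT
HOXC10: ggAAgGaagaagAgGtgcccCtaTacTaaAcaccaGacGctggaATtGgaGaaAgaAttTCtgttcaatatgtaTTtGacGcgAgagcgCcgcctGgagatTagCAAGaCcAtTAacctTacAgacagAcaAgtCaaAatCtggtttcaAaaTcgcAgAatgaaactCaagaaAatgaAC
HOXD10: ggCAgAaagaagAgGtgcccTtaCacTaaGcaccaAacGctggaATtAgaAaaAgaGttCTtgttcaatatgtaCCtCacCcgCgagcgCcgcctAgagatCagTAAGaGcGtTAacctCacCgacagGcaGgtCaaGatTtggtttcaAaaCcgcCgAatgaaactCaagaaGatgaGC
HOXA10 and HOXC10 differ at 33 bases, and their identity is 81.7%. HOXC10 and HOXD10 are 82.8% identical and HOXA10 and HOXD10 77.8%. The longest run without a difference in these pairs is 17 bases, so a read longer than that from the homeobox carries bases that separate the genes. Over the homeoboxes of all 39 genes, the median identity was 81.7% between genes of the same paralog group and 60.6% between genes of different groups.

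HOXC9, a thoracic-level gene in the mouse spinal cord, showed the largest fold decrease of the tested HOX genes. It had 5.76, 5.39 and 5.96 CPM in shMEX3A, against 16.5, 13 and 14 CPM in shCtrl. The highest shMEX3A library was under the lowest shCtrl library, and HOXC9 was 2.56-fold lower in shMEX3A (log2 fold change -1.35, SE 0.087, adjusted p = 4.84e-16). Its paralogs in the other clusters were not called. HOXA9, the oviduct gene, had 8.79, 9.28 and 9.77 CPM in shMEX3A and 9.45, 9.70 and 7.58 CPM in shCtrl, with overlap and an interval of -0.12 to 0.23. With correction for GC content and length HOXA9 was called higher, by 0.21 (adjusted p = 0.0254). HOXB9 had 4.46, 4.84 and 4.28 CPM in shMEX3A and 4.64, 4.99 and 4.81 CPM in shCtrl, and HOXD9 had 5.21, 5.35 and 4.75 CPM in shMEX3A and 4.41, 4.68 and 4.49 CPM in shCtrl. HOXB9 overlapped between the arms while HOXD9 did not, and the intervals were -0.30 to 0.13 for HOXB9 and -0.03 to 0.39 for HOXD9. The ratio of HOXC6 to HOXC9 per kb, within one cluster, was 2.34, 2.64 and 2.46 in shMEX3A and 0.622, 0.741 and 0.741 in shCtrl. Its separation follows from the opposite changes of these genes. The gene models of HOXC6 and HOXC9 overlap, so reads of their shared exon bases cannot be assigned with certainty.

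Past group 10, HOXC genes were lower in shMEX3A and HOXD11 was higher. HOXC13, a gene of hair and nail formation, had 11.3, 11.9 and 12.4 CPM in shMEX3A, against 17.9, 19.5 and 18.7 CPM in shCtrl, with no overlap (log2 fold change -0.66, SE 0.066, adjusted p = 2.62e-11). HOXC11 had 21.8, 22.1 and 20.5 CPM in shMEX3A, against 27.8, 27.3 and 27.1 CPM in shCtrl (log2 fold change -0.35, SE 0.053). Both genes were lower in every shMEX3A library. HOXD11, a forearm and kidney gene in the mouse, had 9.95, 9.30 and 8.64 CPM in shMEX3A, against 5.44, 4.96 and 4.64 CPM in shCtrl, a rise of 0.89 (SE 0.092, adjusted p = 6.39e-11). The gene models of HOXD10 and HOXD11 overlap.

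HOXA11, a uterine and cervical gene, had 25.1, 26.8 and 27.7 CPM in shMEX3A, against 31.9, 27.4 and 29.3 CPM in shCtrl. The arms overlapped, and the call as lower (log2 fold change -0.16, adjusted p = 0.0116) was lost without shCtrl replicate 1, where the change was -0.10 (adjusted p = 0.13). HOXB13, a prostate gene, had 42.2, 42.3 and 41.3 CPM in shMEX3A, against 48.3, 47.2 and 49.4 CPM in shCtrl. It was lower in every shMEX3A library, by -0.20 on the log2 scale (SE 0.041, adjusted p = 4.27e-05), and by -0.35 with correction for GC content and length. HOXD13, a digit gene, had 2.18, 2.72 and 2.77 CPM in shMEX3A and 3.11, 1.66 and 2.00 CPM in shCtrl, and its interval was -0.23 to 0.55. Without shCtrl replicate 1 HOXD13 was called higher, by 0.47 (adjusted p = 0.0202). Of the reproductive tract genes of the HOXA cluster, HOXA10 was therefore higher in shMEX3A, HOXA11 lower by a call that was also lost without shMEX3A replicate 1 (adjusted p = 0.0871), and HOXA9 not called. Exons of other genes cover 26.3% of HOXA10, 27% of HOXA9 and 31.1% of HOXA11. The readthrough HOXA10-HOXA9 has its own row, which averaged 14.8 CPM in shMEX3A and 9.99 CPM in shCtrl. HOXA9 itself averaged 9.28 CPM in shMEX3A and 8.91 CPM in shCtrl. Reads of exons shared with the readthrough cannot be assigned with certainty.

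Neighbouring genes within a cluster did not always move together. Of 35 neighbouring pairs in paralog order, 9 were called in the same direction, 6 in opposite directions and 20 were not both called. The longest same-direction runs were HOXA3 to HOXA7, higher in shMEX3A, and HOXC9 to HOXC11, lower in shMEX3A. Opposite calls stood side by side at, among others, HOXA2 and HOXA3, HOXA10 and HOXA11, HOXB6 and HOXB7, HOXB7 and HOXB8, and HOXC5 and HOXC6. The calls of HOXA11, HOXB7 and HOXC5 in these pairs are those that single libraries decide. By paralog group, the group 5 sum was 104 ± 3.95 CPM per kb in shMEX3A and 50.1 ± 1.42 in shCtrl, and the group 7 sum was 44.3 ± 1.22 in shMEX3A and 42.9 ± 2.23 in shCtrl.

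Promoters are shown for HOXA4, HOXD3 and HOXD11, which were each higher in shMEX3A by a log2 fold change of 0.89 to 1.01, and for HOXA2, whose log2 fold change was -0.96. They were chosen after the changes were seen, among the 20 HOX genes that matched the RefSeq table (27 windows, GRCh38.p14). Each window runs from 250 bases before to 50 after the start, on the gene's strand, 5′ to 3′. Capitals mark matches on either strand to 5 motifs, the TATA box TATAAA, the CCAAT box CCAAT, the GC box GGGCGG, the E-box CACGTG, and the PBX and HOX composite motif TGATTNAT.
HOXA4, chr7:27130708-27131007, minus strand: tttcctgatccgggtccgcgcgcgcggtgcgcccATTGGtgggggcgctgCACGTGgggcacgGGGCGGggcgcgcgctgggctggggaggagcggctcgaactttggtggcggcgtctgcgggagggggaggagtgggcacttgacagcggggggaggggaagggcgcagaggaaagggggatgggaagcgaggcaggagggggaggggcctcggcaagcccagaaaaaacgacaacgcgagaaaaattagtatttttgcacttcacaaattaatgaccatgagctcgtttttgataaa
HOXD3, chr2:176157057-176157356, plus strand: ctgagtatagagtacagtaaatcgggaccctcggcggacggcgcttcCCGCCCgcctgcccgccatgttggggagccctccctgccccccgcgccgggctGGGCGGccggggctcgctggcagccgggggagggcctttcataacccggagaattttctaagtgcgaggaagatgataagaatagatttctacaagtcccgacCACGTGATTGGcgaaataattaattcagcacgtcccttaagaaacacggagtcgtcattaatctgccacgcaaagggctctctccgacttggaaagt
HOXD11, chr2:176107030-176107329, plus strand: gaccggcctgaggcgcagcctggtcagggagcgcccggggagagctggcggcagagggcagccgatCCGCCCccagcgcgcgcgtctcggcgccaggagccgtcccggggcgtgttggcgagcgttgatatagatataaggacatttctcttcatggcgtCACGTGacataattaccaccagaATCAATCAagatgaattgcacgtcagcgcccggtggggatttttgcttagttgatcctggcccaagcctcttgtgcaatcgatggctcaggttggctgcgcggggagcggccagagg
HOXA2, chr7:27102634-27102933, minus strand: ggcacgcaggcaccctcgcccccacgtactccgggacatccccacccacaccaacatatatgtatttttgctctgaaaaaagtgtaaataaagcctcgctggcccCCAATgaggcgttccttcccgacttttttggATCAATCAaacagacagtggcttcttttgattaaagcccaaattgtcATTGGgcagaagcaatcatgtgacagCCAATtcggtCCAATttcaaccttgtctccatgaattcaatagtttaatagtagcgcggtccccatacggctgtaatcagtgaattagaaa
The HOXA4, HOXD3 and HOXD11 windows each hold the E-box, and in HOXD3 it abuts a CCAAT box on the other strand. The HOXD11 and HOXA2 windows hold the composite motif, and HOXA2 holds the CCAAT box at 4 places.

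The 27 HOX windows came mostly from HOXA and HOXD. HOXB gave only that of HOXB1, and HOXC only that of HOXC4 and HOXC5, the same window counted for each. Among them, 33.3% held CACGTG, against 7.3% of 35116 windows of all genes. CCAAT was found in 66.7% of HOX windows and 34.6% of all windows, TATAAA in 18.5% and 11.5%, GGGCGG in 48.1% and 45%, and TGATTNAT in 7.4% and 2.8%. The 9 genes with CACGTG were HOXA3, HOXA4, HOXA7, HOXA9, HOXD1, HOXD3, HOXD10, HOXD11 and HOXD13, with HOXA3 counted through 1 of its 7 windows. Called and uncalled genes were both among them, and no relation between the motif and the change was tested. The median GC content was 58.0% for HOX windows and 58.7% for all windows, and the ratio of observed to expected CpG was 0.85 and 0.58. A match is a run of letters and was not tested for binding.

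RNAs transcribed from within the clusters moved in both directions too. Of 19 listed, 13 were tested, 3 were higher and 5 lower in shMEX3A, with a median log2 fold change of -0.20. Over all tested genes, 34% were called higher and 35.6% lower. HOTAIRM1, an RNA of the HOXA cluster, was 19.4 ± 0.962 CPM in shMEX3A and 13.3 ± 0.740 CPM in shCtrl (log2 fold change 0.54, adjusted p = 1.85e-09). HAGLR, from the HOXD cluster, was 8.91 ± 0.927 CPM in shMEX3A and 4.94 ± 0.274 CPM in shCtrl (0.85, adjusted p = 4.67e-10). HOTAIR, an RNA of the HOXC cluster known for its link to Polycomb, was 3.54 ± 0.357 CPM in shMEX3A and 5.67 ± 0.586 CPM in shCtrl (-0.68, adjusted p = 1.99e-06). HOXA10-AS was 2.12 ± 0.327 CPM in shMEX3A and 6.19 ± 0.655 CPM in shCtrl (-1.53, adjusted p = 1.97e-13), while HOXA10, which it overlaps, was higher. Also named for their overlap with HOX exons, after their values were seen, are HOXA10-HOXA9, which joins the 2 genes and was higher by 0.57, and HOXA-AS3, which overlaps HOXA7 and was lower by a log2 fold change of -0.32.

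The cofactors that bind DNA together with HOX proteins belong to the TALE homeodomain proteins. The list counted here also holds the repressors TGIF1 and TGIF2, and PBXIP1, which is not of this class. Of 11 tested, 3 were higher and 5 lower in shMEX3A (median log2 fold change -0.13, against -0.01 over all tested genes). PBXIP1 and TGIF1 were among the 5 lower. Over all tested genes 34% were higher and 35.6% lower. PBX2 was 143 ± 1.70 CPM in shMEX3A and 122 ± 3.02 CPM in shCtrl, with a log2 fold change of 0.24. PBX3 was higher by 0.29. MEIS3 was 2.75 ± 0.145 CPM in shMEX3A and 6.05 ± 1.10 CPM in shCtrl (-1.14, SE 0.13, adjusted p = 4.54e-10), and MEIS1, a frequent partner of HOXA9, was 2.34 ± 0.225 CPM in shMEX3A and 3.32 ± 0.309 CPM in shCtrl (-0.50, adjusted p = 0.0019). TGIF1, a repressor of this class, was 197 ± 1.44 CPM in shMEX3A and 257 ± 3.63 CPM in shCtrl (-0.39).

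Chromatin regulators that hold HOX genes on or off were called in both directions, and are read against the 34% higher and 35.6% lower over all tested genes. Of 31 Polycomb genes, which keep HOX genes silent, 12 were higher and 12 lower in shMEX3A, with a median of -0.01. CBX6 was 251 ± 8.28 CPM in shMEX3A and 101 ± 4.72 CPM in shCtrl (1.32), and PHC2 was higher by 0.57. RBBP7 was 91.4 ± 1.45 CPM in shMEX3A and 226 ± 7.86 CPM in shCtrl (-1.30), and PHF19 was lower by a log2 fold change of -0.94. Of 19 Trithorax group and related activators, 11 were higher and 5 lower, with a median of 0.13. KDM6B, which removes the repressive methylation laid down by Polycomb, was 312 ± 7.37 CPM in shMEX3A and 75.0 ± 3.78 CPM in shCtrl (2.05, SE 0.035, adjusted p = 5.86e-34). DOT1L, a histone methyltransferase that sustains HOXA genes in leukaemia, was 98 ± 3.17 CPM in shMEX3A and 26.1 ± 0.855 CPM in shCtrl (1.91, SE 0.041, adjusted p = 1.58e-31). ASH2L and CTCF were lower, with log2 fold changes of -0.62 and -0.34, and the 5 lower Trithorax calls became 2 with correction for GC content and length.

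Retinoic acid switches on HOX genes from the anterior end through its nuclear receptors. Of 12 tested genes of its synthesis, reception and breakdown, 6 were higher and 2 lower in shMEX3A (median 0.15). Among all tested genes, 34% were higher and 35.6% lower. The receptor RARG was 65.2 ± 1.05 CPM in shMEX3A and 47.3 ± 0.815 CPM in shCtrl (0.46, adjusted p = 1.94e-13), and RARA was higher by 0.21. RDH10, which makes retinaldehyde, was 943 ± 33.3 CPM in shMEX3A and 755 ± 43.6 CPM in shCtrl (0.32). ALDH1A1, which oxidises it to retinoic acid, was 165 ± 1.69 CPM in shMEX3A and 320 ± 4.03 CPM in shCtrl (-0.96, SE 0.030, adjusted p = 2.04e-26). CYP26A1, an enzyme that degrades retinoic acid and a target of its receptors, was 3.13 ± 0.161 CPM in shMEX3A and 5.37 ± 0.376 CPM in shCtrl (-0.78). RARB, another receptor target, was under the filter, at 0.148 to 0.403 CPM in shMEX3A and 0.0499 to 0.114 CPM in shCtrl.

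**Figure D5:**
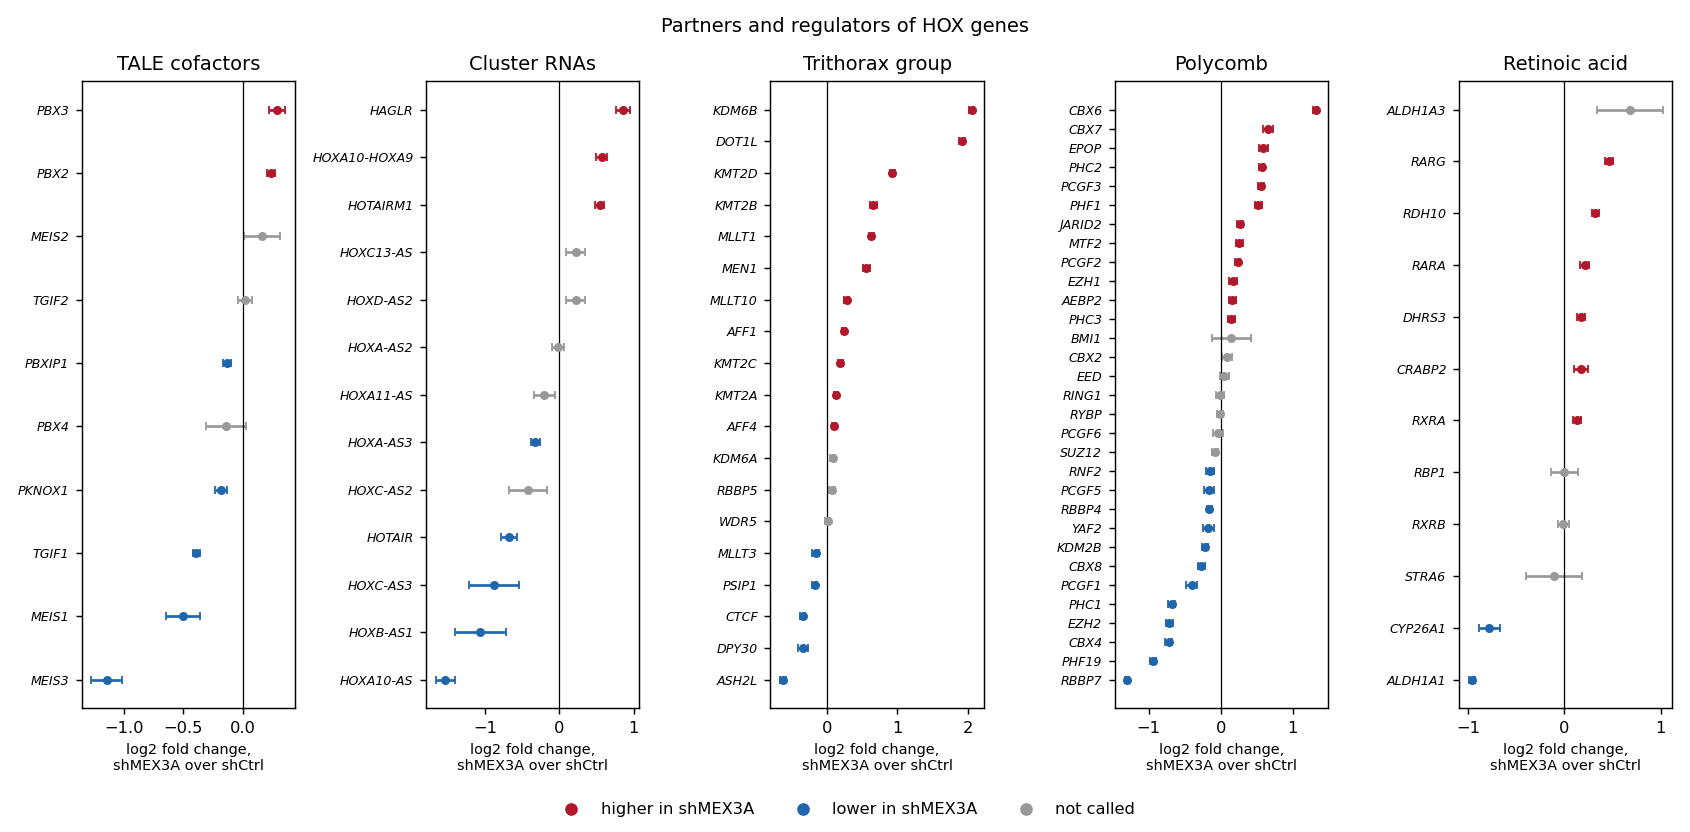
Log2 fold change, shMEX3A over shCtrl, with its SE, coloured by call. Shown are the tested genes reported here that were listed as TALE cofactors, cluster RNAs, Trithorax group, Polycomb or retinoic acid genes. Genes of each list lie on both sides of 0, from KDM6B at 2.05 to HOXA10-AS at -1.53.

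Genes next to the clusters gave the local background. Of the nearest 2 coding genes on each side, 13 of 16 were tested, 4 were higher and 6 lower in shMEX3A (median -0.10). The shares over all tested genes were 34% higher and 35.6% lower. SMUG1, a DNA repair gene beside HOXC, was 26.7 ± 1.12 CPM in shMEX3A and 13.9 ± 1.28 CPM in shCtrl (0.94), and CALCOCO1, on the other side of HOXC, was higher by 0.49, while HOXC itself held mostly lower calls. SKAP2, beside the HOXA cluster, was 87.9 ± 0.438 CPM in shMEX3A and 134 ± 2.03 CPM in shCtrl (-0.61). PRAC2, which lies inside the HOXB cluster, was lower, with a log2 fold change of -0.57. The 6 lower calls among neighbours became 3 with correction for GC content and length. Of 5 genes reported as HOX targets, 3 were tested. CDKN1A, a cell cycle inhibitor reported as a HOXA10 target, was 1430 ± 19.0 CPM in shMEX3A and 810 ± 15.4 CPM in shCtrl (0.82), ITGB3 was higher by 0.15 and FGF2 changed by -0.15.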

How the data were processed

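RNA was sequenced in 3 shMEX3A and 3 shCtrl libraries. The authors deposited 1 table of raw read counts per gene. The submitters' processing notes name GRCh38 and the tools HTSeq 2.0.4, STAR, fastp 0.20.0 and edgeR 4.0.16, without their roles. Which annotation and strand setting served for counting is not given in the sources used here.

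The test was edgeR 4.0.16 in R 4.3.3 (filterByExpr with a minimum count of 10, TMM, robust quasi-likelihood fit, 4 residual degrees of freedom). Adjusted p-values follow Benjamini-Hochberg, over 15679 genes. Libraries of an arm differed beyond sampling noise (chi-square per degree of freedom 2.69 to 6.15), so none was treated as a duplicate. Levels are TMM-scaled CPM, divided by union exon length (GENCODE 29) where given per kb, with the SD over libraries. SEs come from the F statistic.

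HOX members and gene lists were chosen with earlier results of these data known. All HOX genes enter the counts, and some results under the rules for named genes are not reported here. In other lists, the 2 called genes with the smallest p in each direction are named, and any member where 12 or fewer were tested. The marker genes named, and HOXA10-HOXA9 and HOXA-AS3, were chosen after their values were seen. Alternatives were DESeq2 1.42.0 (test and size factors), upper-quartile factors, other filters, limma 3.58.1 voom, a replicate block, GC and length offsets (splines with 5 degrees of freedom) and each library left out. Homeoboxes and motifs were found by string search in Python 3.11.15. Tested on simulated data of this comparison with 15679 genes, edgeR recovered 83 of 85 genes changed 1.5-fold at 1 CPM and over but 1 of 15 under 1 CPM, with 8 false calls among 187.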

Additional observations from a re-analysis of the deposited data

How the results depend on the processing

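Across the 16 alternatives, the count of HOX genes called higher in shMEX3A ran from 13 to 15 and of those called lower from 8 to 13, and no call changed direction. Leaving out single libraries gave 13 to 14 higher and 8 to 12 lower. The DESeq2 test gave 13 higher and 8 lower, the fit without a low-count filter 13 and 13, and GC and length offsets 15 and 10. An added fit on the same genes as the offsets but without them, chosen after seeing the data, gave 14 and 10. The calls of HOXA11, HOXB3, HOXB7, HOXC5 and HOXD10 were each lost under at least 1 alternative. Under the DESeq2 test the adjusted p was 0.0618 for HOXB3, 0.0973 for HOXB7, 0.074 for HOXC5 and 0.0892 for HOXD10. In lists, cluster RNAs called lower became 3 when at least 1 CPM was required, and reported targets called lower became 0 with GC and length offsets. The cause of these shifts was not tested. Replicate numbers did not pair the samples (correlations of deviations -0.0309, 0.0772 and -0.0769), and the replicate block gave 14 higher and 11 lower, or 15 and 10 with the offsets. Depth may limit HOX genes under 1 CPM. There the simulation recovered 1 of 15 genes changed 1.5-fold and 8 of 13 changed 2-fold. Far fewer genes changed in it than were called in the data, so these rates are not those of the data.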

Other observations

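Genes outside the clusters that pattern the reproductive tract and kidney were measured in the same libraries. Of 12 tested, 3 were higher and 6 lower in shMEX3A, with a median log2 fold change of -0.26. Calls over all tested genes were 34% higher and 35.6% lower. PAX2 was 174 ± 3.46 CPM in shMEX3A and 89.3 ± 4.31 CPM in shCtrl (SD, n = 3 each), and LHX1, which acts in the Müllerian duct, was 5.15 ± 0.191 CPM in shMEX3A and 0.664 ± 0.0821 CPM in shCtrl. Their log2 fold changes were 0.96 for PAX2 (adjusted p = 2.94e-24, edgeR quasi-likelihood test) and 2.95 for LHX1 (adjusted p = 8.01e-19). SALL1 was 147 ± 2.74 CPM in shMEX3A and 232 ± 9.24 CPM in shCtrl (-0.66), and DACH1 was 0.333 ± 0.112 CPM in shMEX3A and 1.42 ± 0.359 CPM in shCtrl (-2.10). ESR1, PGR and WNT9B had 0 counts in all 6 libraries.

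Homeobox genes outside the HOX clusters were also called in both directions, with 5 higher and 7 lower of 15 tested and a median of -0.29. They are read against the same 34% higher and 35.6% lower over all tested genes. EN2 was 255 ± 8.88 CPM in shMEX3A and 136 ± 3.65 CPM in shCtrl (0.91), and LBX2 was 7.91 ± 0.502 CPM in shMEX3A and 3.53 ± 0.301 CPM in shCtrl (1.16). DLX6 was 19.7 ± 1.25 CPM in shMEX3A and 35.3 ± 0.727 CPM in shCtrl (-0.83), and MSX2 was 46.3 ± 2.49 CPM in shMEX3A and 71.5 ± 0.831 CPM in shCtrl (-0.63). CDX1 and CDX4, upstream regulators of HOX genes, had 0 counts in all 6 libraries, and CDX2 stayed under the filter.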
